A study of Mus musculus with 16 samples.

Results

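The 10 genes described here are hormone, granule and fate genes of the enteroendocrine cells of the gut: Chga, Chgb, Pyy, Gcg, Cck, Insl5, Tph1, Sst, Neurod1 and Sct. They were taken by gene symbol, and all 10 were found among the 22396 gene symbols of the expression tables. RNA was sequenced from EpCAM+ cells, that is, cells carrying an epithelial surface protein, sorted from the distal colonic mucosa of 16 mice, with 1 library per mouse. All mice carried Tnfr2-f/f, the gene of TNF receptor 2 (symbol Tnfrsf1b) flanked by loxP sites on both alleles, and the control mice carried nothing else. The other mice were Vil1::Cre;Tnfr2-f/f, in which Cre under the villin promoter acts in the intestinal epithelium, and they are called labelled knockout here. Mice drank water (4 control and 5 labelled knockout) or dextran sulfate sodium (DSS), which injures the colonic epithelium, for 6 days (3 control and 4 labelled knockout), and the labels place dissection on day 12. DSS was given at 3% per the labels and at 3.5% per the methods, the mice were 8 weeks old, and injured regions were dissected out of the DSS-treated colons. The DSS-treated mice were all female, in cages c and d. The water-treated mice were 4 males of cage a and 5 females of cage b.

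Enteroendocrine cells are rare hormone-secreting cells scattered through the gut lining. They arise from progenitors that switch on the transcription factor Neurog3 and then Neurod1, and they store peptides and amines in dense granules with the chromogranins encoded by Chga and Chgb. In the colon the main kinds are enterochromaffin cells, which make serotonin through tryptophan hydroxylase 1 (Tph1), and L cells, which make glucagon-like peptides from the Gcg precursor, peptide YY (Pyy) and insulin-like peptide 5 (Insl5). D cells make somatostatin (Sst), and cholecystokinin (Cck) and secretin (Sct) are better known from the small intestine.

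Levels are given in TPM, an abundance unit scaled for transcript length and, in its standard form, for the total of the library. The deposited values cover principal transcripts only and summed to 487469 to 861109 per library, not to a fixed total. The water and DSS tables were scaled separately, so no test was run across treatments. Where levels are set across treatments, all 16 libraries were first brought to a common scale by median-of-ratios factors, and these values are called rescaled TPM. The factors ran from 0.905 to 0.940 in water and from 1.13 to 1.24 after DSS, and the median gene differed between DSS and water controls by 0.32 (log2) before and 0.01 after rescaling. Epcam was high in every library, with a median rescaled TPM of 678 in water and 782 after DSS. Of 12 epithelial reference genes that include it, 4 had a higher mean log2 rescaled level after DSS, and the median log2 difference was -0.30. Krt8, the most abundant of the 12, stood after DSS at 0.659 of its water mean. Immunoglobulin transcripts took 1.62% to 47.4% of the TPM in water libraries and 0.0265% to 2.26% after DSS, and the summed TPM of 15 leukocyte markers ran from 1241 to 14728 and from 14.1 to 475. Tnfrsf1b, the targeted gene, was at 13.9 ± 2.06 TPM (SD, n = 4) in water controls and 11.8 ± 2.30 (SD, n = 5) in mice labelled knockout, and at 16.5 ± 4.95 (SD, n = 3) and 18.4 ± 6.02 (SD, n = 4) after DSS, so its level overlapped between genotypes in both tables (log2 difference -0.23, SE 0.16, and 0.14, SE 0.27). The floxed part is exon 2, and a level summed over the whole transcript does not by itself check its deletion.

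Sequences just before 6 transcription starts are shown, those of Chga, Chgb, Tph1, Sst and Gcg. Chga, Chgb, Tph1 and Sst had higher mean levels after DSS, and Gcg is the L-cell gene with the densest matches. Neurod1 and Cck also had higher mean levels after DSS and are not shown. The sequences are from RefSeq (GRCm38.p6), which held all 10 members, 3 of them with a second start. Capitals mark TGACGT or its reverse complement ACGTCA (the core of the cAMP response element), CAGATG or its reverse complement CATCTG (1 form of the E-box that factors such as Neurod1 bind), and TATAAA on the coding strand. The full lines hold the 250 bases before the start. For Chgb and Sst only 30 bases around the match are shown, because the GENCODE annotation places that stretch inside the first exon.
Chga, chr12:102554691-102554940, + strand: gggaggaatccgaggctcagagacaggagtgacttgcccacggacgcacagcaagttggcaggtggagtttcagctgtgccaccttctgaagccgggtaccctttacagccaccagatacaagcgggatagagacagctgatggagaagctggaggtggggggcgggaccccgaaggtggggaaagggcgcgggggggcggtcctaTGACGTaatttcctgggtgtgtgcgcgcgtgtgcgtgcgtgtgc
Chgb, chr2:132781558-132781587, + strand: ggggctgctccgTGACGTCAgggctgagcg
Sst, chr16:23890875-23890904, - strand: cgcctccttggcTGACGTCAgagagagagt
Tph1, downstream start, chr7:46667378-46667627, - strand: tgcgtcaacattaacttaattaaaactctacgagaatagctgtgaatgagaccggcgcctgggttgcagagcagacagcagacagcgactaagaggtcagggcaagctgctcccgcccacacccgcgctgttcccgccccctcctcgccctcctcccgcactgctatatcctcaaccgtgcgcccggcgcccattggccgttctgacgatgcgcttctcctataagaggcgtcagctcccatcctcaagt
Tph1, upstream start, chr7:46672538-46672787, - strand: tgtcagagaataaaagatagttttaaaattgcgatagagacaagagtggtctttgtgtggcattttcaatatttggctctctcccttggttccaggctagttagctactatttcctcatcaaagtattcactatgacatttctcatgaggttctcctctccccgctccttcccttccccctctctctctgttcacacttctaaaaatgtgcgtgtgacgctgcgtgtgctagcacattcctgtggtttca
Gcg, chr2:62483654-62483903, - strand: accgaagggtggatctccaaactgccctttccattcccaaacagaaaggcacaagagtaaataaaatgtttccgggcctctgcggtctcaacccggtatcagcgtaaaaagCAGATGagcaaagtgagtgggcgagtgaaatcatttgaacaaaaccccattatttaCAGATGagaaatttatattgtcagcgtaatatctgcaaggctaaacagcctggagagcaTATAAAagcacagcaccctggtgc

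The core of the cAMP response element was found before the starts of 3 members, Chga, Chgb and Sst, with its first base 44, 72 and 48 bases before the start. In Chgb and Sst both orientations overlapped in the 8-base form TGACGTCA. Of 32851 RefSeq windows of the same length, 6.47% held either 6-base form and 1.55% the 8-base form. CAGATG was found before Gcg, 139 and 83 bases from the start, and once each before Cck, Insl5 and Sct, against 14.4% of all windows with either form of this E-box. The letters TATAAA lay 24 bases before the start of Gcg and was also found before Insl5 and Sct, against 7.59% of all windows. None of these letters was found before either start of Tph1, before Pyy or before Neurod1. A match describes the letters of the window only.

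In the water-treated colon the chromogranins and the L-cell hormones Pyy and Insl5 stood at like levels. Among controls the mean was 79.4 TPM for Pyy, 76.4 for Chgb, 60.6 for Chga and 57.7 for Insl5, and the ranges of neighbours in this order overlapped. Gcg followed at 30.5 TPM, Tph1 at 14.7 and Sst at 8.05, and Sct, Cck and Neurod1 were below 4 TPM. After DSS the order differed: Chgb led the controls at 275 TPM and Chga followed at 132. Tph1 at 53.5 TPM and Pyy at 52.5 came next, with overlapping ranges, and Sst, Insl5 and Gcg followed at 39.7, 33.6 and 28.7. The summed TPM of the 10 members was 333 ± 27.2 (SD, n = 4) in water controls and 625 ± 183 (SD, n = 3) in DSS controls on the deposited scales.

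Among the granule and serotonin genes, Chgb and Tph1 stood higher in the DSS-treated epithelium after rescaling. Chgb, a core protein of the dense granule, was at 64.0, 93.3, 68.0 and 108 rescaled TPM in the 4 water controls and at 114, 104, 91.6, 84.1 and 76.3 in the 5 mice labelled knockout on water. After DSS it was at 235, 236 and 230 in controls and at 123, 319, 249 and 213 in mice labelled knockout. On this scale every DSS-treated mouse lay above every water-treated mouse, although labelled knockout replicate 1, at 123, lay close to the highest water value of 114. The mean over all mice was 2.57-fold higher after DSS, and the controls alone differed 2.81-fold.

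Tph1, the rate-limiting enzyme of serotonin synthesis outside the brain, was at 10.6, 14.6, 19.1 and 19.8 rescaled TPM in water controls and at 22.4, 14.0, 14.9, 16.5 and 20.6 in water-treated mice labelled knockout. It was at 55.3, 44.3 and 37.7 in DSS controls and at 25.3, 61.3, 55.7 and 31.8 in DSS-treated mice labelled knockout. Again no DSS-treated mouse fell within the water range on this scale, and the mean over all mice was 2.62-fold higher. The tables list 2 Tph1 transcripts, 1 from each start shown above. On the deposited scales, the transcript from the upstream start (ENSMUST00000049298) averaged 4.68 ± 0.640 TPM (SD, n = 4) in water controls and 22.02 ± 7.14 (SD, n = 3) in DSS controls. The transcript from the downstream start (ENSMUST00000107669) averaged 10.0 ± 3.25 (SD, n = 4) and 31.5 ± 2.25 (SD, n = 3). The downstream transcript made up 61.1% to 79.1% of Tph1 in water-treated mice and 48.3% to 66.5% after DSS, so both transcripts were higher and these shares overlapped.

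Chga, the other chromogranin, differed by less between the treatments. It was at 58.4, 70.9, 59.0 and 75.7 rescaled TPM in water controls and at 104, 79.5 and 149 in DSS controls, without overlap and with a 1.68-fold higher mean. In mice labelled knockout it was at 100.1, 87.8, 67.4, 70.4 and 68.9 in water and at 50.6, 143, 102 and 75.3 after DSS. These overlapped, and the fold between their means was 1.17, so Chga separated the treatments among controls and overlapped among mice labelled knockout; the difference between genotypes was not tested across tables.

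Neurod1, the transcription factor that follows Neurog3 in the lineage, was low in every mouse. Water controls held 1.60, 0.742, 1.69 and 0.783 rescaled TPM and water-treated mice labelled knockout 2.39, 1.88, 2.22, 1.43 and 1.38. DSS controls held 4.25, 4.24 and 3.86 and DSS-treated mice labelled knockout 2.69, 4.09, 4.12 and 4.05. The groups did not overlap, and the mean was 2.49-fold higher after DSS. Values this low rest on few reads, and TPM carries no read depth.

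**Figure D1:**
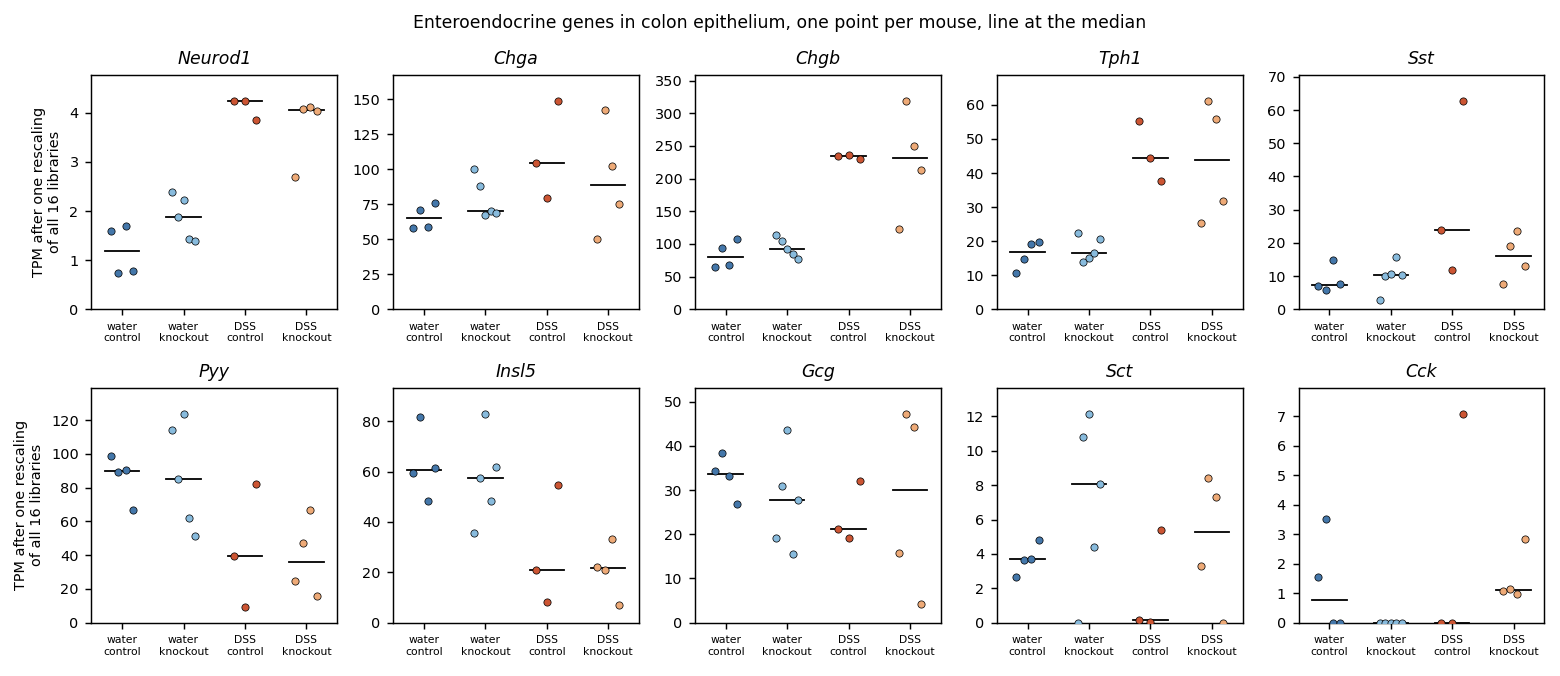
Rescaled TPM of each of the 10 genes (vertical axis, linear and from 0, a scale per gene) in each mouse of the 4 groups; each point is 1 mouse and the line is the group's median. The DSS points of Chgb, Tph1 and Neurod1 all lie above the water points, whereas those of Pyy and Insl5 reach lower than any water point.

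The L-cell hormones Pyy and Insl5 were lower in most DSS-treated mice but not in all. Pyy, whose product slows gut transit and curbs appetite, was at 98.6, 89.5, 90.7 and 66.5 rescaled TPM in water controls and at 114, 85.0, 124, 62.0 and 51.4 in water-treated mice labelled knockout. After DSS it was at 39.4, 9.01 and 82.1 in controls and at 24.8, 46.9, 66.6 and 15.7 in mice labelled knockout. The DSS mean was 0.468 of the water mean, and 5 of the 7 DSS-treated mice lay below the lowest water value, while control replicate 3 and labelled knockout replicate 3 lay within the water range. Because these are bulk libraries, fewer cells of a kind and less RNA per cell cannot be told apart.

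Insl5, a peptide made mainly by colonic L cells, was at 59.4, 81.8, 48.3 and 61.7 rescaled TPM in water controls and at 35.7, 57.4, 83.0, 48.4 and 62.0 in water-treated mice labelled knockout. It was at 20.8, 8.06 and 54.6 in DSS controls and at 22.03, 21.1, 33.2 and 6.79 in DSS-treated mice labelled knockout. The DSS mean was 0.398 of the water mean, and DSS control replicate 3 alone lay within the water range. The proportion of the 2 peptides overlapped between treatments, as the ratio of Pyy to Insl5 ran from 0.829 to 3.20 in water-treated mice and from 1.12 to 2.31 after DSS.

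Gcg did not separate the treatments. It was at 34.3, 38.4, 33.1 and 26.8 rescaled TPM in water controls and at 19.1, 31.0, 43.7, 15.5 and 27.7 in water-treated mice labelled knockout. It was at 21.3, 19.2 and 32.1 in DSS controls and at 15.8, 47.2, 44.2 and 4.26 in DSS-treated mice labelled knockout. The highest value of the 16 mice (47.2) and the lowest (4.26) were both from DSS-treated mice labelled knockout, and the DSS mean was 0.878 of the water mean.

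Sst, the D-cell hormone that restrains other hormone-secreting cells, was at 7.01, 5.76, 14.7 and 7.59 rescaled TPM in water controls and at 2.68, 10.0, 10.8, 15.6 and 10.4 in water-treated mice labelled knockout. It was at 23.9, 11.9 and 62.8 in DSS controls and at 7.59, 18.9, 23.4 and 13.2 in DSS-treated mice labelled knockout. The DSS mean was 2.46-fold higher, but the ranges overlapped and DSS control replicate 3, at 62.8, pulled the mean up. Sct was at 2.65 to 4.82 rescaled TPM in water controls and from 0 to 12.1 in water-treated mice labelled knockout. In DSS controls it was at 0.145, 0.0271 and 5.42, and in DSS-treated mice labelled knockout at 3.27, 8.43, 7.33 and 0. Cck was listed at 0 in 7 of the 9 water-treated mice, at 1.55 and 3.53 in water control replicates 1 and 2, at 0, 0 and 7.09 in DSS controls and at 1.08, 1.13, 0.983 and 2.85 in DSS-treated mice labelled knockout. The 14 genes checked that every cell uses were above 0 in every library.

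Over the 10 members, 4 stood higher in DSS controls than in water controls without overlap after rescaling (Chga, Chgb, Tph1 and Neurod1) and 0 stood lower. Of all 11241 genes averaging 1 rescaled TPM or more, 10.6% stood higher and 14.2% lower without overlap. Within-library percentile ranks, which need no scaling between tables, gave the same 4 members, against 19.0% of genes higher and 10.3% lower. On the deposited scales Sst was added to the members that stood higher, against 30.9% and 8.25% of genes. When 12 epithelial genes set the scale, Sst was again higher and Pyy and Gcg were lower without overlap, against 5.03% and 11.8%. Chgb ranked between percentiles 91.1 and 94.7 of 11247 genes in water-treated mice and between 96.2 and 98.6 after DSS, and Tph1 between 58.7 and 76.9 and between 80.9 and 92.8. Neurod1 ranked between percentiles 6.18 and 21.01 in water and between 27.0 and 36.6 after DSS. Over all 16 mice 3 members stood higher without overlap (Chgb, Tph1 and Neurod1) and 0 lower, against 4.49% and 7.04% of all genes. As no water-treated mouse of either sex reached the DSS range of these 3 genes, this held for the females of the water group as well. With the 12 epithelial genes setting the scale, only Neurod1 stood apart over all mice, where 188 of 11284 genes stood higher and 673 lower. On that scale Chgb reached 135 in water and began at 118 after DSS, and Tph1 reached 24.6 and began at 24.1. Between the labelled knockout groups 9 members averaged 1 rescaled TPM or more. Of these, 3 stood higher (Chgb, Tph1 and Neurod1) and Insl5 stood lower, against 17.4% and 18.1% of all genes that passed. Insl5 overlapped on the deposited scales, on the epithelial scale and by percentile rank. Cck did not pass and stood higher, from 0 in every water-treated mouse labelled knockout.

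The counts on the lower side changed with single mice, most with DSS control replicate 3. This mouse had the highest Chga, Pyy, Cck, Insl5 and Sst of the 7 DSS-treated mice, and its summed TPM of 9 goblet cell markers was 9617, against 2551 to 3777 in the other DSS-treated mice and 4647 to 8093 in water. Without it, Pyy, Gcg, Insl5 and Sct stood lower in DSS controls without overlap, beside the same 4 members that stood higher. Without it, Insl5 stood lower over all mice as well. With water control replicate 4 left out instead, Pyy and Gcg stood lower between the control groups, and with water control replicate 3 left out, Insl5 did. The share of all genes was not counted with a mouse left out, and non-overlap is easier to reach with fewer mice. The cage mate of DSS control replicate 3 in cage c, labelled knockout replicate 1, had instead the lowest Chga, Chgb, Tph1, Sst and Neurod1 of the DSS-treated mice. Whether the amount of injured tissue taken from each mouse had a part in this was not tested.

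Ratios within a library do not depend on how the tables were scaled, and they set Chga, Chgb and Tph1 against the L-cell genes in each mouse. These ratios were chosen after the values were seen and have no test. The sum of Chga, Chgb and Tph1 over the sum of Gcg, Pyy and Insl5 was 0.692, 0.852, 0.849 and 1.31 in water controls and 1.40, 1.19, 0.695, 1.36 and 1.18 in water-treated mice labelled knockout. It was 4.84, 9.91 and 2.47 in DSS controls and 3.18, 4.54, 2.83 and 12.0 in DSS-treated mice labelled knockout. All 7 DSS-treated mice lay above all 9 water-treated mice, DSS control replicate 3 with its high hormone levels included. The median ratio was 1.18 in water and 4.54 after DSS.

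The 2 chromogranins also differed from each other. The ratio of Chgb to Chga ran from 1.10 to 1.43 in water-treated mice and from 1.54 to 2.97 after DSS, without overlap, so Chgb was higher relative to Chga in every DSS-treated mouse. The ratio of Tph1 to Chga ran from 0.159 to 0.324 in water and from 0.252 to 0.557 after DSS. Only DSS control replicate 3, at 0.252, lay within the water range.

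**Figure D2:**
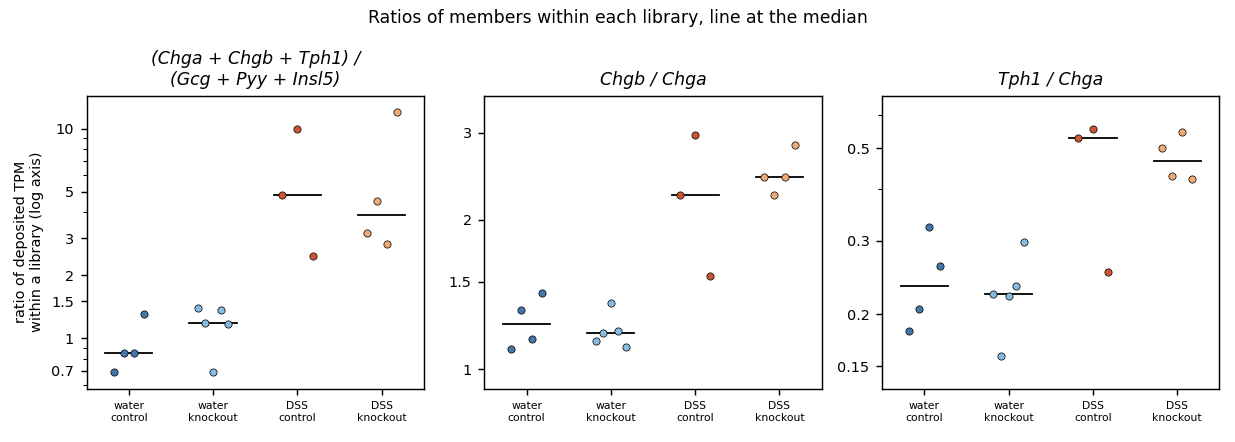
Ratios of deposited TPM within each library on a log axis, 1 point per mouse and a line at each group's median, for the 3 ratios described in the text. The left and middle panels show no overlap between water and DSS, and in the right panel 1 DSS control lies among the water-treated mice.

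In proportion to their levels, the L-cell hormone genes differed more among DSS-treated mice than among water-treated mice. The highest rescaled level over the lowest was 9.11 for Pyy, 11.1 for Gcg and 8.04 for Insl5 after DSS, and 2.41, 2.82 and 2.33 in water. On the log2(TPM + 1) scale the SD over the 7 DSS-treated mice was 1.14 for Pyy, 1.11 for Gcg and 1.04 for Insl5, and the median SD of the 5093 genes averaging 10 TPM or more was 0.24. Larger SDs were seen in 2.57%, 2.69% and 2.85% of those genes. In water the SDs of Pyy, Gcg and Insl5 were 0.43, 0.46 and 0.38, exceeded by 20.4%, 17.6% and 25.3% of 4595 genes. A wide spread was not particular to the L-cell genes. Sst, Cck and Sct had SDs of 0.96, 1.16 and 1.60 after DSS and 0.65, 0.77 and 1.08 in water, and Chga 0.56 and 0.25. Chgb and Tph1 had SDs of 0.41 and 0.46 after DSS, and Neurod1 had the lowest SD of the members, 0.18. Neurod1, Cck and Sct averaged below 10 TPM and are not among the genes compared. These spreads pool both genotypes of a treatment and were not tested between tables.

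**Figure D3:**
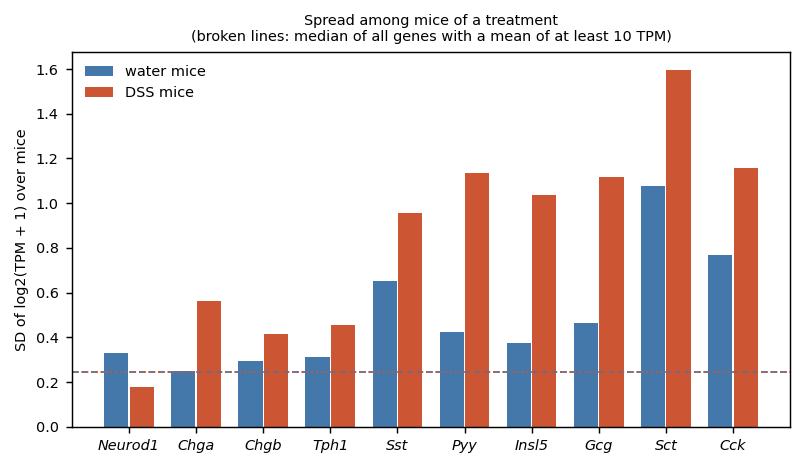
SD of log2(TPM + 1) of each gene over the 9 water-treated and the 7 DSS-treated mice (bars from 0), with broken lines at the median SD of the genes averaging 10 TPM or more, which is 0.24 in both tables. The DSS bars of Pyy, Insl5 and Gcg stand at 1.04 to 1.14, those of Sst, Cck and Sct at 0.96 to 1.60, and that of Neurod1 at 0.18. Neurod1, Cck and Sct averaged below 10 TPM and are not among the genes behind the lines.

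Other genes of the enteroendocrine program were described from fixed lists, counting the genes that averaged 1 rescaled TPM or more over all mice. Of all 11207 genes that passed, 5659 had a higher mean log2 level after DSS. Without overlap, 4.49% of them stood higher and 7.04% lower, and the counts below are to be read beside these shares. Of 14 transcription factors of the lineage 8 passed, 7 of them had a higher mean log2 level after DSS, and 2 stood higher without overlap. These were Insm1, which acts beside Neurod1 in endocrine fate, at 0.647 to 2.57 in water and 2.62 to 4.45 after DSS, and Foxa1, a forkhead factor of the gut epithelium, at 23.1 to 34.1 and 40.1 to 50.1. Foxa2, a related factor, overlapped widely, at 0 to 14.3 and 3.25 to 8.30. Rfx6, which acts early in endocrine fate, did not pass the filter, and its values were seen before it was named: it was listed at 0.161 or below in every water-treated mouse and at 0.620 to 1.90 after DSS. Neurog3, also named after its values were seen, had a median of 0 in water and 3.90 after DSS, with ranges of 0 to 2.36 and 1.18 to 5.38. Some factors went the other way, and these too were named after their values were seen. Isl1, which passed, was at 0.747 to 2.563 in water and 0.559 to 1.745 after DSS, with overlap. Etv1 and Hhex did not pass and stood at 0.559 and 0.156 of their water means. They overlapped over all mice but stood lower without overlap between the control groups.

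Of 18 prohormone processing and granule genes 12 passed, 10 had a higher mean log2 level after DSS and 0 stood apart without overlap. Cpe, which trims prohormones, was at 11.8 (median) in water and 15.1 after DSS, Resp18, a granule protein, at 6.43 and 7.08, and Pam, which amidates peptides, at 3.65 and 4.15. The median log2 difference over the 12 genes was 0.32, over the members 0.58, and over all 11207 genes tested 0.01. Of 12 other gut peptides 4 passed. Tac1, the precursor of substance P, which enterochromaffin cells also make, was at 1.47 to 5.55 in water and 11.5 to 26.9 after DSS, without overlap and with a 5.97-fold higher mean. Ddc, which finishes serotonin synthesis, overlapped at 27.3 to 45.3 and 22.2 to 32.3, as did Adm at 17.3 to 32.7 and 12.5 to 27.0. Penk, the enkephalin precursor, was named after its values were seen: it was at 0.514 to 4.68 in water and at 0 to 0.359 after DSS.

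The receptors were described in the same way. Of 12 luminal sensing receptors 6 passed and 0 stood apart without overlap, with Slc5a1 at a median of 28.4 in water and 31.4 after DSS, Ffar4 at 12.1 and 22.2, and Olfr78 at 3.41 and 5.79. Of 16 hormone receptors and serotonin genes 5 passed, and Htr4, a serotonin receptor, stood higher without overlap, at 4.37 to 7.89 in water and 8.46 to 11.5 after DSS. Slc6a4, the serotonin transporter, was named after its values were seen and was at 4.01 to 6.57 in water and 0.888 to 4.11 after DSS. It stood lower without overlap within each genotype but overlapped over all mice. Npy1r, which binds peptide YY, had medians of 4.78 and 5.41, and Sstr1, a somatostatin receptor, medians of 5.25 and 1.58. Of the 50 genes of the enteroendocrine reference list that the study took from a cell atlas, 36 passed, 21 had a higher mean log2 level after DSS and 3 stood higher without overlap (Chgb, Neurod1 and Insm1). That list holds 9 of the 10 members, Chgb and Neurod1 among them, and its median log2 difference was 0.24. Of all 11207 genes 5659 had a higher mean log2 level, and 4.49% stood higher and 7.04% lower without overlap.

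**Figure D4:**
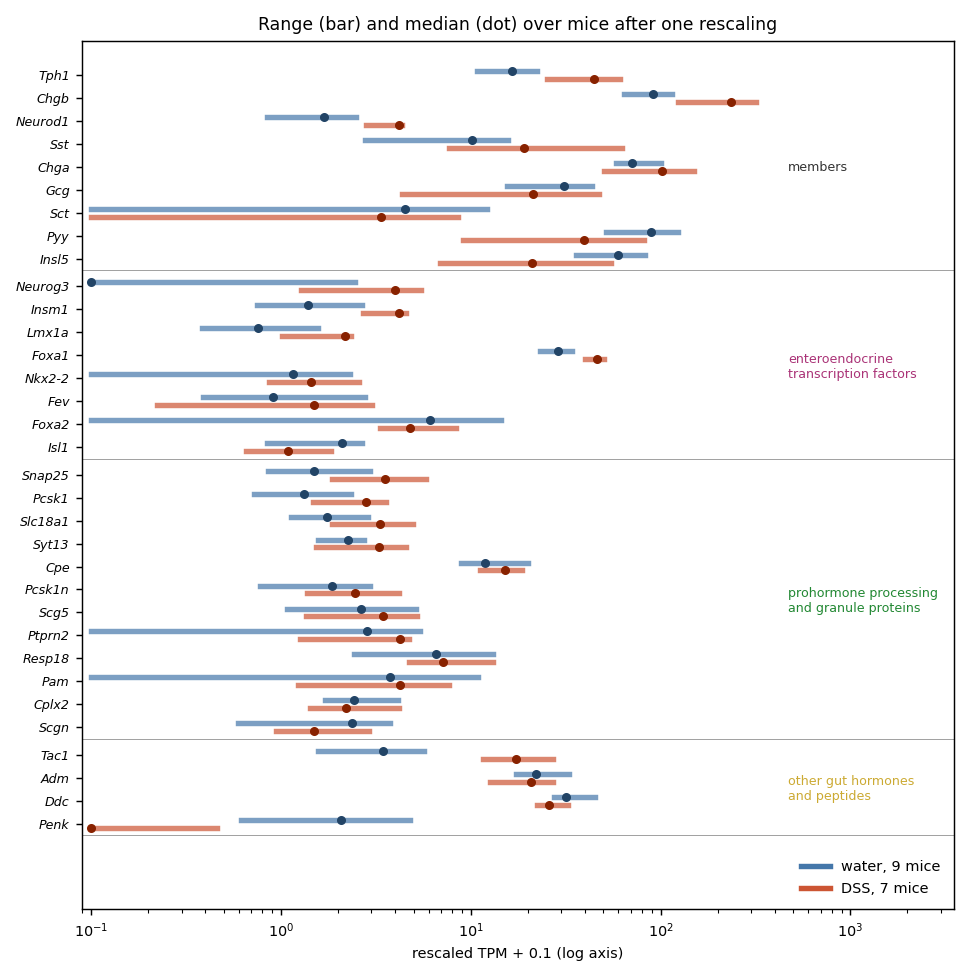
Range over mice (bar) and median (dot) of rescaled TPM plus 0.1 on a log axis, in 9 water-treated and 7 DSS-treated mice, for the members other than Cck and the passing genes of 3 lists, ordered by fold within a list. The bars of Tph1, Chgb, Neurod1, Insm1, Foxa1 and Tac1 do not overlap on the higher side after DSS, nor does that of Penk on the lower side.

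Markers of other cells that hold serotonin or granule proteins were read beside these results. Single genes of the mast cell and neuron lists were named after their values were seen. The summed TPM of 8 mast cell markers ran from 7.88 to 23.6 in water and from 6.73 to 29.6 after DSS. The mast cell receptor genes Fcer1a and Ms4a2 were listed at 0 in all 16 mice. Of the 5 markers averaging 1 rescaled TPM or more, 3 had higher means after DSS (Hdc 5.75-fold, Mcpt1 3.62-fold and Mcpt2 3.54-fold). Kit and Cma1 stood at 0.264 and 0.343 of their water means, and all 5 overlapped. The summed TPM of 6 enteric neuron markers ran from 2.27 to 8.22 in water and from 1.10 to 2.59 after DSS. Elavl4 and Prph were listed at 0 in all mice. Stmn2, the most abundant of the 6, was at 1.35 to 7.87 rescaled TPM in water and 0.265 to 1.02 after DSS, without overlap. Of 9 goblet markers 2 stood lower after DSS without overlap over all mice, against 7.04% of all genes. Their median log2 difference was -1.64, whereas tuft cell markers had 0 of 4 without overlap. The part of these cells in the levels of the members was not tested.

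No member was called between genotypes in either treatment. Genotypes were compared within each table by limma on log2(TPM + 1), with a call at a Benjamini-Hochberg adjusted p under 0.05 over all genes tested. After DSS all 10 members passed the filter and 0 were called, against 0.00918% of 10899 genes (1 gene, Tra2a). In water 9 members passed and 0 were called, against 0.00905% of 11046 genes (1 gene, Dus2), and Cck did not pass the filter there. At an unadjusted p under 0.05 there were 0 members in either table, against 289 and 583 genes. The groups overlapped for every member in both tables.

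After DSS, the widest differences between labelled knockout and control mice were those of Sct and Sst. Sct was at 5.65 ± 4.60 TPM (SD, n = 4) in mice labelled knockout and 2.30 ± 3.82 (SD, n = 3) in controls, a log2 difference of 1.19 (SE 1.01; limma adjusted p = 0.9997; exact permutation p = 0.4, two-sided). Sst was at 18.7 ± 8.15 TPM (SD, n = 4) and 39.7 ± 33.9 (SD, n = 3), a log2 difference of -0.81 (SE 0.58; limma adjusted p = 0.9997; exact permutation p = 0.2571). The L-cell hormones had small differences with wide errors, 0.10 (SE 0.77) for Pyy, -0.20 (SE 0.71) for Insl5 and -0.23 (SE 0.76) for Gcg. Chgb, Tph1 and Neurod1 had narrower errors, with log2 differences of -0.11 (SE 0.29), -0.13 (SE 0.32) and -0.12 (SE 0.18). With 3 against 4 mice the smallest exact p is 0.0286.

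In water the largest log2 differences were 0.38 (SE 0.22) for Neurod1, 0.37 (SE 0.67) for Sct, -0.34 (SE 0.28) for Gcg and 0.25 (SE 0.15) for Chga, with limma adjusted p from 0.8645 to 0.9266. The exact two-sided permutation p was 0.1111 for Neurod1 and 0.1746 for Chga, where 4 against 5 mice allow 0.00794 at the least. Within cages the chromogranins differed in opposite directions. In cage a, of males, Chga was at 54.4 and 53.9 TPM in controls and 93.6 and 80.2 in mice labelled knockout. In cage b, of females, it was at 65.0 and 69.2 and at 63.4, 63.7 and 63.2. Chgb was at 59.6 to 62.0 TPM in controls and 94.8 to 107 in mice labelled knockout of cage a, and at 85.5 to 98.7 and 70.0 to 86.1 in cage b, where they overlapped. The interaction of genotype and cage, added after these values were seen, was -0.75 (SE 0.17, limma adjusted p = 0.7322) for Chga and -0.97 (SE 0.20, adjusted p = 0.7116) for Chgb, and 0 of 11046 genes were called, with 472 at an unadjusted p under 0.05. Cage and sex cannot be told apart in these mice.

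**Figure D5:**
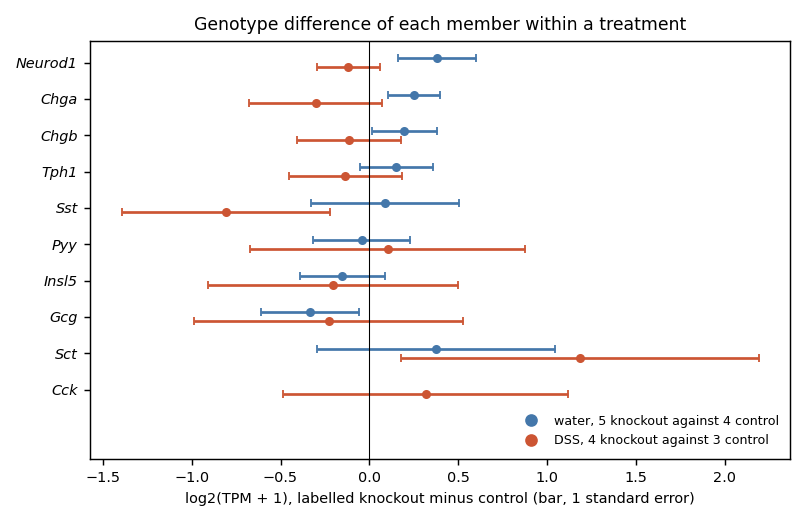
Difference of mean log2(TPM + 1) between labelled knockout and control mice (horizontal axis, bars of 1 standard error) for each gene in water and after DSS; Cck in water did not pass the filter and is not drawn. The DSS errors of Pyy, Gcg, Insl5, Sct and Cck are the widest, between 0.71 and 1.01.

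Between the cages of the water-treated mice, with genotype in the fit, 0 of 9 members were called, against 0.0362% of 11046 genes (4 genes, Eif2s3y, Ddx3y, E2f5 and Gm26992, of which the first 2 are Y-linked). Insl5 had a log2 difference of 0.43 (SE 0.20, limma adjusted p = 0.755) in females of cage b over males of cage a, at 62.0 ± 14.3 TPM (SD, n = 5) against 46.3 ± 9.85 (SD, n = 4), and Neurod1 one of -0.38 (SE 0.19, limma adjusted p = 0.755). No gene of the other fixed lists was called in the genotype comparisons or between the cages.

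The genes whose levels most resembled the mean log2 level of the members, centred within each treatment, were ranked by the smaller of their Pearson correlations over the 9 water-treated and the 7 DSS-treated mice, among 10150 genes averaging 1 TPM or more in both tables. The first 10 were Smtn (0.73 in water and 0.84 after DSS), Ilkap, Acer1, Phax, Gsdma, Gstm4, Gm49369, Ildr1, Prkag1 and Slc31a2 (0.68 and 0.75). None of the 10 is in the fixed lists. Mice of a table share their scaling, and 10150 genes were searched over few mice, so these values are a description.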

How the data were processed

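Bulk RNA-seq was done on sorted EpCAM+ cells of 16 mice, 1 library each, with single-end reads of 75 bases from stranded, poly(A)-selected libraries. The labels aim at about 10 M reads a sample, and the depth reached is not given in the sources used here. Per the labels and the processing notes, the authors quantified transcripts with kallisto and sleuth against mm10 and deposited TPM in 1 table per treatment; versions are not given in the sources used here. Each table lists 29373 lines for principal transcripts, of which 385 repeat a transcript with equal values. Repeats were dropped and the 28988 transcripts summed to 22396 gene symbols. The members and gene lists were chosen with earlier results of these data known.

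Genotypes were compared within each table by limma (3.58.1, R 4.3.3) with a mean-variance trend on log2(TPM + 1) for genes with a mean of 1 TPM or more, with Benjamini-Hochberg adjustment over all genes tested, and by exact two-sided permutation. Differences on this scale understate changes of low genes. Cage was compared in the water table with genotype in the fit, and since cage and sex coincide there, they are 1 comparison. Across treatments only levels, percentile ranks over 11247 genes and overlap counts were given, after a single median-of-ratios rescaling of all 16 libraries. Alternatives were another pseudocount, other filters, rescaling by 12 epithelial genes, a cage covariate, a replicate block and leaving out each mouse. From the fixed lists the text names the 3 most abundant genes of each enteroendocrine list, and others are marked as chosen after their values were seen. The scripts were tested on simulated data. Tables were handled with Python 3.11.15 (pandas 2.3.3, numpy 2.4.6) and drawn with matplotlib 3.10.9. Transcript positions came from GENCODE M21 and start sequences from RefSeq, both on GRCm38.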

Additional observations from a re-analysis of the deposited data

Results flagged for a closer look

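Among 29 gene-by-group sets of 4 or 5 mice, 2 held a mouse whose gap to the nearest of the others was large against the whole range by Dixon's test, a rule that chance meets in about 1 of 20 sets. Cck was at 3.34 TPM in DSS-treated labelled knockout replicate 4 and at 1.16 to 1.35 in the other 3. Neurod1 was at 3.20 TPM in DSS-treated labelled knockout replicate 1 and at 4.75 to 4.88 in the other 3, and this mouse also had the lowest Chga, Chgb, Tph1 and Sst after DSS.

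Chga differed between genotypes in opposite directions in the cages of the water-treated mice: the 2 mice labelled knockout of cage a lay above both controls, and the 3 of cage b lay below both. The difference of the differences was -0.75 on the log2 scale (SE 0.17; limma adjusted p = 0.7322), which did not pass the threshold.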

How the results depend on the processing

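No member was called under any alternative: the smallest limma adjusted p over the members was 0.722 for genotype after DSS, 0.718 for genotype in water and 0.599 for cage. The 1 gene called for genotype after DSS became 0 with a pseudocount of 0.1, with no filter and with a replicate block, and 0 to 3 with a mouse left out. The 1 gene called in water became 0 with a pseudocount of 0.1, 0 with a filter of 5 TPM, 0 with the block and 4 with no filter, and 1 to 2 with a mouse left out. The 4 genes called for cage became 0 with the block, and 3 to 7 with a mouse left out. The cause was not tested. Mice sharing a replicate number are different animals whose deviations did not pair (r from -0.197 to 0.0932), so the numbers mark no pairs.

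The 4 members that did not overlap between DSS and water controls became 7 on the epithelial scale and ranged from 4 to 8 with a mouse left out, 8 without DSS control replicate 3. The share of all genes was not counted with a mouse left out.

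Uncalled log2 differences changed sign as follows. With the replicate block, values after DSS were 0.45 for Gcg and 0.24 for Insl5, in water 0.13 for Pyy, and between cages 0.28 for Pyy, -0.12 for Tph1 and -0.54 for Sst. Sct in water was -0.087 with a pseudocount of 0.1, Chga between cages 0.063 on the epithelial scale, and Gcg between cages -0.0056 without genotype in the fit. With a mouse left out, values after DSS ran from -0.31 to 0.15 for Chgb, -0.77 to 0.83 for Pyy, -0.64 to 0.45 for Gcg, -0.23 to 1.41 for Cck, -0.88 to 0.50 for Insl5, -0.33 to 0.087 for Tph1 and -0.16 to 0.0004 for Neurod1. In water they ran from -0.19 to 0.13 for Pyy, -0.0102 to 0.26 for Tph1 and -0.095 to 0.43 for Sst. Between cages they ran from -0.19 to 0.030 for Chga, -0.072 to 0.21 for Chgb, -0.16 to 0.21 for Gcg, -0.086 to 0.25 for Tph1, -0.21 to 0.62 for Sst and -0.0045 to 1.47 for Sct. Read depth is unknown, so the counting error of low genes such as Cck, Sct and Neurod1 is not known.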
